A study of Mus musculus with 84 samples.

Results

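The genes described here are 34 genes that skeletal muscle fibres use, measured in the liver and the inguinal adipose tissue (IAT) of diabetic db/db mice. They were taken by name from the gene name column of the array files, where 33 of the 34 have a probe (61 probes in all, on an array of 41174 probes and 27845 gene names). The mice were males of the BKS Cg-m+/+ Leprdb/J strain, whose leptin receptor is defective, and were 8 weeks old on arrival. Every treated group received a compound by mouth for 18 days. In each tissue 3 groups received RSG (rosiglitazone, an agonist of the nuclear receptor PPARγ) at 28, 84 or 280 µmol/kg, and 3 groups received a compound known here only as S at those doses, with 6 mice in each group and 36 mice in each tissue. All groups, the controls included, carry the db/db mutation. The control is 1 pool per tissue of RNA from 6 db/db mice given the vehicle, and each treated mouse was set against it on a pair of 2-colour arrays with exchanged dyes, so the spread between control mice is in no test. A further 12 samples are technical repeats of liver RNA, 6 of RSG 28 and 6 of S 28, whose reference channel carries the same label as the pool.

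Skeletal muscle contracts by sliding thick filaments of myosin along thin filaments of actin. Calcium released through the ryanodine receptor Ryr1 binds troponin, which moves tropomyosin off the actin and lets myosin bind, and the pump Atp2a1 returns the calcium to its store. Fibres come as fast and slow types with separate forms of myosin, troponin and light chains. Hepatocytes and adipocytes do not build sarcomeres. In RNA from a whole tissue, fewer cells of a type and less RNA per cell cannot be told apart.

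Muscle genes are known to be switched on by MyoD-family factors at E-boxes, by MEF2 and, for the actins, by SRF at the CArG box. The 250 bases before the RefSeq start are shown for 4 members, on build GRCm38.p6: the myosins Myh1 (chr11:67199852-67200101, plus strand) and Myh4 (chr11:67237562-67237811, plus strand) and the actin Acta1 (chr8:123894776-123895025, minus strand), which lay below the pool in most livers, and the tropomyosin Tpm2 (chr4:43523555-43523804, minus strand), which lay above it. Capitals mark matches on either strand to the E-box CAGCTG, the MEF2 motif and the CArG box.
Myh1: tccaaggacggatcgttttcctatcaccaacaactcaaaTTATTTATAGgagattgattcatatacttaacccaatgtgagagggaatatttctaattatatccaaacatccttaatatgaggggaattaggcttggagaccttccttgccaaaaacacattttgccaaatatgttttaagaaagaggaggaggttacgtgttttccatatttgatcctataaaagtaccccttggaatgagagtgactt
Myh4: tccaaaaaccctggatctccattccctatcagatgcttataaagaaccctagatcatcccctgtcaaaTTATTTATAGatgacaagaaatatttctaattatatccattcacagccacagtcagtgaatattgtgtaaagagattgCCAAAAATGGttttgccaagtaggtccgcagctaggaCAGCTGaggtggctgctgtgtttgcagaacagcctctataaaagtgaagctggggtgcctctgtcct
Acta1: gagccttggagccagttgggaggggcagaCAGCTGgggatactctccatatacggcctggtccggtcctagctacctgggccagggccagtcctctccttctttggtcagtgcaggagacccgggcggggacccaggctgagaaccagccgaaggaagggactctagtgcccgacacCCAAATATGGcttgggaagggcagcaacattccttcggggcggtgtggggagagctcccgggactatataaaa
Tpm2: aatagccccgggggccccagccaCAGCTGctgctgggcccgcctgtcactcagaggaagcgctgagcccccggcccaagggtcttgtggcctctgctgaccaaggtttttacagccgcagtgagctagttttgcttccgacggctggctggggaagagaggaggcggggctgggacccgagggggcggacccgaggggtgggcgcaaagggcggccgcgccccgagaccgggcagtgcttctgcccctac
The MEF2 match starts 211 bases before the start in Myh1 and 182 bases before it in Myh4, where a CArG box at 104 and an E-box at 67 follow. Acta1 has the E-box at 221 and the CArG box at 73, and Tpm2 an E-box at 227. Among the 29 members found in the promoter table, 15 hold CAGCTG, 4 the MEF2 motif and 4 the CArG box in at least 1 entry. Counted by entry, these motifs are held by 17, 4 and 5 of the 36 entries of the members. Of all 32851 promoter entries of that length, 13% hold CAGCTG, 1.69% the MEF2 motif and 1.47% the CArG box. These matches are a description and no binding was measured.

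Between 43.4 and 65.8% of the probes were well above background in the mouse channel of the liver arrays, and between 61.8 and 78.2% in that of the IAT arrays. All 13 hepatocyte genes checked were above background on all 72 liver arrays, and all 12 adipocyte genes on all 72 IAT arrays. The tests took in 26026 probes in liver and 31429 in IAT, those that either channel detected well above background in 50% or more of a group's arrays. Each gene is given by its brightest probe. In liver 24 members passed, and Actn2, Actn3, Casq1, Ckm, Mybpc2, Myl2, Pvalb, Pygm and Trim63 did not. In IAT all 33 passed. Since a member could pass through the pool channel alone, the counts below describe the members tested and not all members. In liver Mb, Myh1, Myl1 and Tnnt3 passed that way. Their mouse channel was well above background on at most 2, 2, 2 and 5 of a group's 12 arrays. With a detected pool and a dim mouse channel, their direction against the pool was largely set by the filter.

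In liver, 13 to 18 of the 24 members tested were lower than the control pool in each group of compound and dose, and 1 or 2 were higher. The lower ones include Mb, Myh1, Myl1 and Tnnt3 in every group, whose direction the filter largely set. Of the 24 members tested, 18 were lower and 2 higher at RSG 28 (limma, adjusted p under 0.05), where 33.7% of all probes were called lower and 24.8% higher. At RSG 84 the counts were 18 and 2 (all probes 32.6% and 23.9%), and at RSG 280 they were 16 and 1 (29.5% and 21.4%). With S the counts were 13 and 2 at 28 µmol/kg (28.3% and 23%), 16 and 2 at 84 (30.6% and 23.7%) and 18 and 2 at 280 (37.9% and 27.9%). The median log2 ratio over the members ran from -0.34 at S 28 to -0.64 at S 280, where the medians over all probes were -0.02 and -0.05. The 13 hepatocyte genes had medians of -0.45 and -0.61 in these groups, so a median of this size was not particular to the members. By role, at S 280, 6 of 7 thick filament genes were lower (median log2 ratio -1.80), as were both energy and oxygen supply genes, Mb and Eno3 (median -1.68). Of 9 thin filament genes 7 were lower and 2 higher (median -1.04), and 2 of 4 Z-disc genes were lower (median -0.16). The map of group means by member shows these differences between roles.

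**Figure D1:**
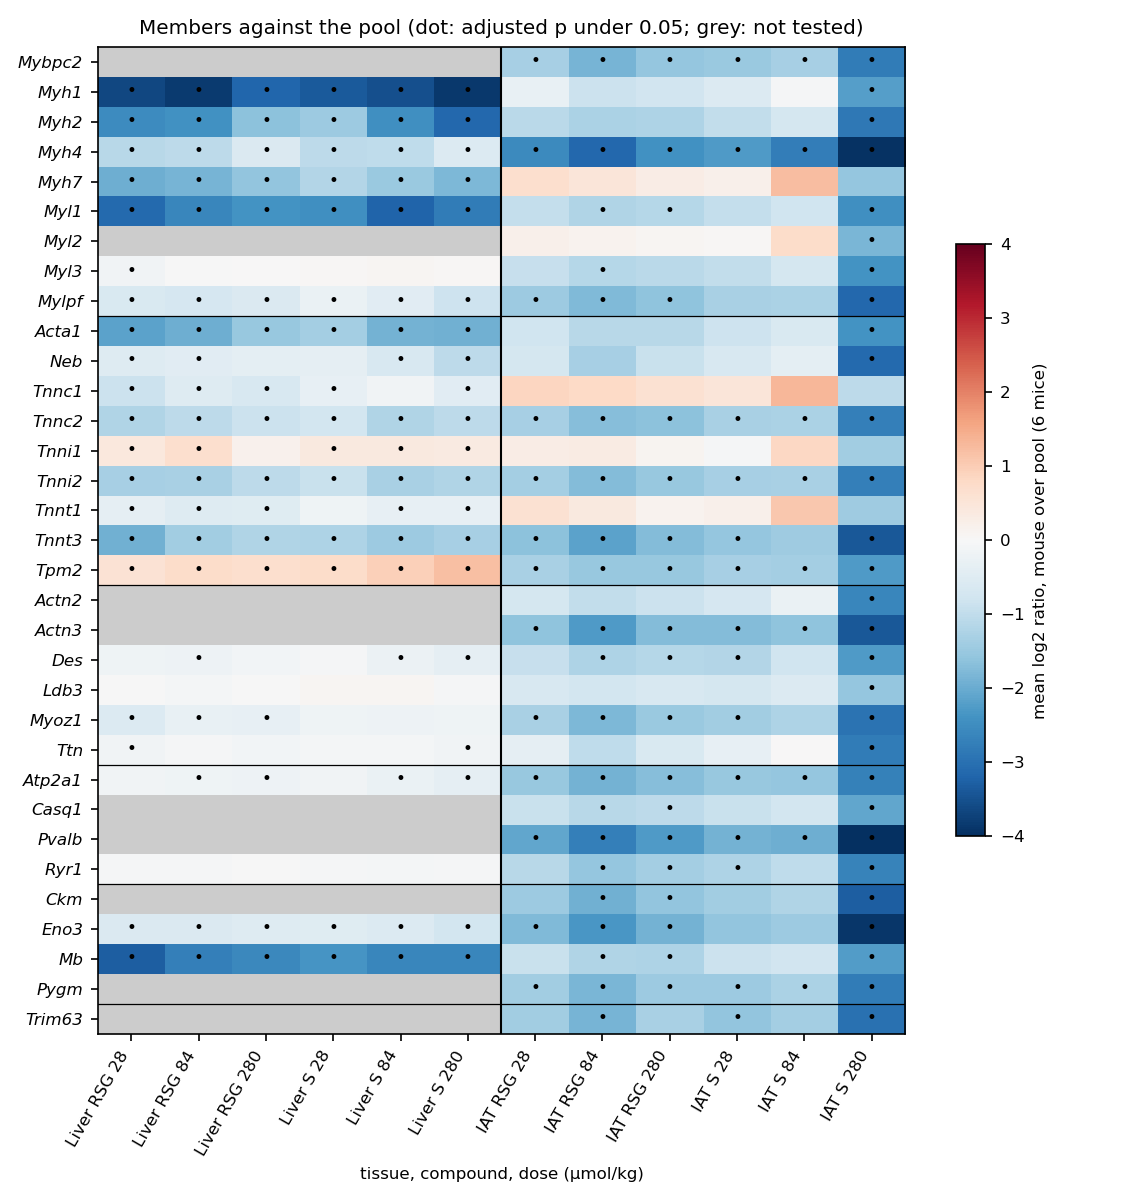
Mean log2 ratio of mouse over pool for each member (rows, ordered by role) in the 6 liver groups and the 6 IAT groups (columns, dose in µmol/kg, 6 mice each). Dots mark adjusted p under 0.05 and grey marks members not tested. In liver Myh1, Mb, Myl1 and Myh2 are blue at every dose and Tpm2 is red, while in IAT the S 280 column is blue for all 33 members.

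Myh1, the heavy chain of fast type IIx fibres, lay far below the pool in liver. At RSG 28 its log2 ratio was -3.85, -3.73 and -3.15 in the lowest, middle and highest mouse (mean -3.64 ± 0.42 SE, adjusted p = 8.53e-09). At S 280 these values were -4.08, -3.87 and -3.72 (mean -3.86 ± 0.42, adjusted p = 1.24e-09). No mouse of those groups came near the pool. The mouse channel of Myh1 was not well above background on any of the 12 arrays at RSG 28, RSG 84 or S 280, so these ratios are bounds: the livers were at least 5.54-fold, 4.03-fold and 5.25-fold lower than the pool, taking the dimmest well-detected signal of each array as the limit. Its probe lies at chromosome 11, 67040631 to 67040690 (build mm8).

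Mb, the oxygen-binding myoglobin of muscle, was also far below the pool. Its log2 ratios at RSG 28 were -3.46, -3.37 and -2.97 in the lowest, middle and highest mouse, with the mouse channel at background on all 12 arrays, and the livers were at least 3.73-fold lower (adjusted p = 2.37e-09). At RSG 84 they were at least 2.49-fold lower (adjusted p = 8.73e-08). The fast light chain Myl1 was at background in the mouse channel in 4 groups and at least 2.11-fold, 1.42-fold, 2.22-fold and 1.62-fold lower at RSG 28, RSG 84, S 84 and S 280. These mouse signals were at the limit of detection, so the order of the groups below that limit cannot be read.

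Myh2, the heavy chain of type IIa fibres, was measured above background in the mouse channel on 5 to 11 of the 12 arrays of a group, 11 of them at RSG 280 and 5 at S 280. The lowest, middle and highest mouse at RSG 280 had log2 ratios of -2.84, -1.63 and -0.31 (mean -1.66 ± 0.32 SE, 3.15-fold lower, adjusted p = 6.23e-05). At S 280 they were -4.80, -2.90 and -2.17 (mean -3.16 ± 0.32, adjusted p = 2.26e-10), a size that rests on mouse signals mostly not well above background. The ranges of these groups overlap. Acta1, the actin of skeletal muscle, was 4.43-fold lower at RSG 28 (log2 ratios -2.58, -2.13 and -1.65, adjusted p = 2.74e-09) and 3.76-fold lower at S 280 (-2.56, -1.92 and -1.31, adjusted p = 1.45e-08). All 6 mice of each of these 4 groups lay below the pool for the gene named.

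Tpm2, the beta tropomyosin, which smooth muscle also uses, went the other way and was above the pool in all 36 livers. In the lowest, middle and highest mouse its log2 ratio was 0.33, 0.57 and 0.79 at RSG 28 (1.49-fold higher, adjusted p = 3.06e-05) and 0.70, 1.25 and 1.64 at S 280 (2.31-fold higher, adjusted p = 1.24e-11). Both of its probes were called higher at 280 µmol/kg with either compound. Tpm2 was the 1 member above the pool in every liver, beside 6.32% of all probes. Tnni1, the slow troponin I, was the other member called higher, at every dose but RSG 280, although its second tested probe was called in no liver group. The pool channel of the brighter Tnni1 probe was well above background on 45 of 72 liver arrays.

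Eno3, the muscle enolase, had a shallower and tighter shift. Its log2 ratio was -0.78, -0.62 and 0.16 in the lowest, middle and highest mouse at RSG 280 (mean -0.51 ± 0.07 SE, adjusted p = 1.29e-07) and -0.85, -0.76 and -0.61 at S 280 (mean -0.75 ± 0.07, adjusted p = 1.49e-11). The pump Atp2a1 and the intermediate filament desmin (Des) lay nearer the pool. At S 280 Atp2a1 had values of -0.65, -0.38 and -0.03 (adjusted p = 2.13e-05) and Des had -0.60, -0.39 and 0.03 (adjusted p = 0.000457). Myl3, Ldb3 and Ryr1 lay close to the pool with their brightest probes, and none of these was called at 280 µmol/kg.

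**Figure D2:**
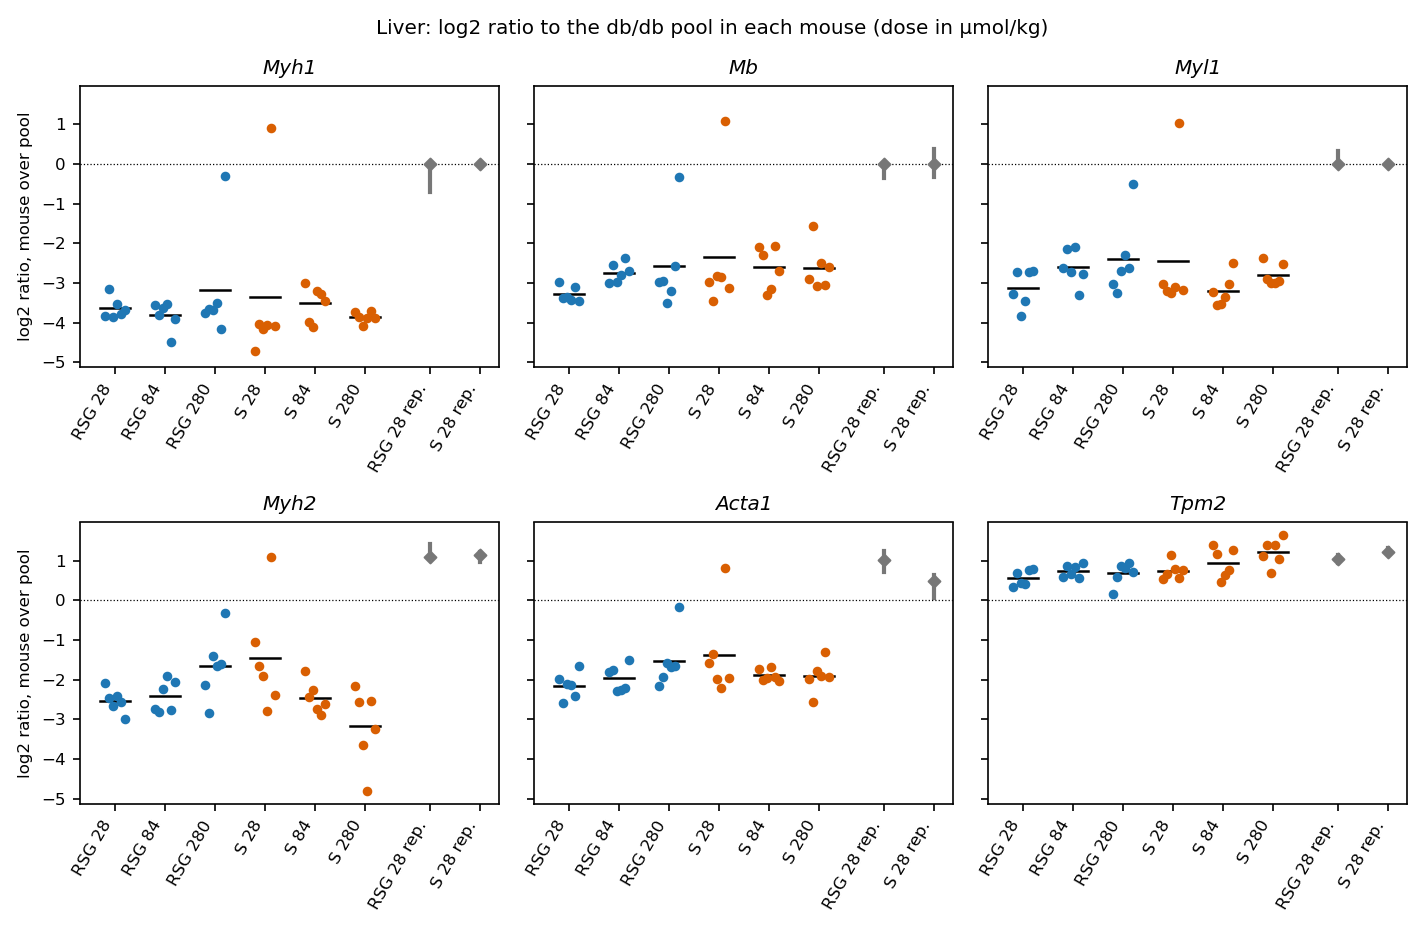
Log2 ratio of mouse over pool in liver for 6 members (panels), 1 point per mouse, blue for RSG and orange for S, with the group mean as a bar; grey diamonds and lines give the median and range of the 6 technical repeats of RSG 28 and of S 28. In S 28 a single mouse lies above 0 for the 5 members other than Tpm2, the RSG 280 mouse nearest 0 stands apart for Myh1, and the technical repeats of Myh1, Mb and Myl1 lie at 0.

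A pair of livers stood apart in these genes. In S 28 replicate 5 the log2 ratio was 0.91 for Myh1, 1.08 for Mb, 1.04 for Myl1 and 1.09 for Myh2, and this liver was the highest of its 6 for 17 of the 24 members (16.4% of all probes). Its median over the members was 0.28, the single positive value among 36 livers. In RSG 280 replicate 6 the ratios were -0.31 for Myh1, -0.33 for Mb and -0.50 for Myl1, and it was the highest for 11 members (12.6% of all probes). With these livers included, 1 of 24 members (Myh4) was below the pool in every liver, beside 9.7% of all probes. Without them 11 members were below it in the other 34 livers (Acta1, Mb, Myh1, Myh2, Myh4, Myh7, Myl1, Mylpf, Tnnc2, Tnni2 and Tnnt3), beside 9.98% of all probes. Acta1, Mb, Myh1, Myh2 and Myl1 were at least 1 log2 unit below it in all 34, as were 20 of all probes (0.0769%). The pair was picked for its high values in these members and not in all probes. The counts without it therefore favour the members, and the shares of all probes are no matched comparison. The counts of members called against the pool stayed within 1.5 times the values above when both were left out.

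The spread between livers was wide for a few members. The SD between mice of a group was 1.07 for Myh1, 0.91 for Mb, 0.87 for Myl1 and 0.81 for Myh2 on the log2 scale, and 0.32 for the middle member, against 0.16 for the middle probe of the array. Of the 24 members, 8 were above the 95th percentile of all probes and 4 above the 99th. Ryr1 had the smallest SD of the members, 0.08.

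The signal of each channel was read as well. On the 72 arrays of treated livers the pool was well above background on every array for 17 of the 33 members and the mouse channel for 9. The pool channel was above background on 72 arrays for Mb and Myh1 and on 67 for Myl1, and the mouse channel on 7, 6 and 3. Over those arrays the pool signal was steady, with an SD of 0.23 log2 units for the middle member against 0.21 for all probes tested.

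On the 24 arrays of the technical repeats the reference channel gave a much lower signal for several of these genes. After quantile normalisation of average signals, Myh1 in the reference channel was 8.10 on the arrays of the treated mice (lowest 7.80, highest 8.36) and 2.80 on those of the repeats (2.45 to 4.36), on a log2 signal scale. For Mb these means were 7.49 (6.93 to 7.78) and 3.99 (3.13 to 4.97). For Myl1 they were 6.53 (5.59 to 7.14) and 2.94 (2.59 to 4.58). The ranges do not overlap for any of the 3 genes, and the reference was above background on none of the 24 repeat arrays for them. Acta1 was at 7.96 against 5.27, and Myh2 at 9.07 against 7.24. In all, 10 of the 24 members (41.7%) were lower by more than 1 log2 unit in the reference of the repeats (these 5 and Tnnt3, Tnni2, Myh7, Tnnc2 and Neb), against 433 of 26026 probes (1.66%), and none was higher by that much. Among them Mb, Myh1, Myl1 and Tnnt3 had been tested only because the pool channel passed on the arrays of the mice, which favours a lower value here. The ranges did not overlap for 10 members, Tpm2 among them and Tnnt3 not, against 1.37% of all probes. The median over all probes was -0.01, and 13 hepatocyte genes had a median difference of -0.02, but 2 of 10 brown adipocyte genes and 1 of 10 adipocyte genes were also lower by more than 1 log2 unit. Eno3, Ttn, Ryr1 and Atp2a1 differed by 0.03, -0.06, 0.10 and 0.32. These are values of the brightest probe, and for Ttn and Ryr1 other probes gave other ratios to the pool, as given below.

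**Figure D3:**
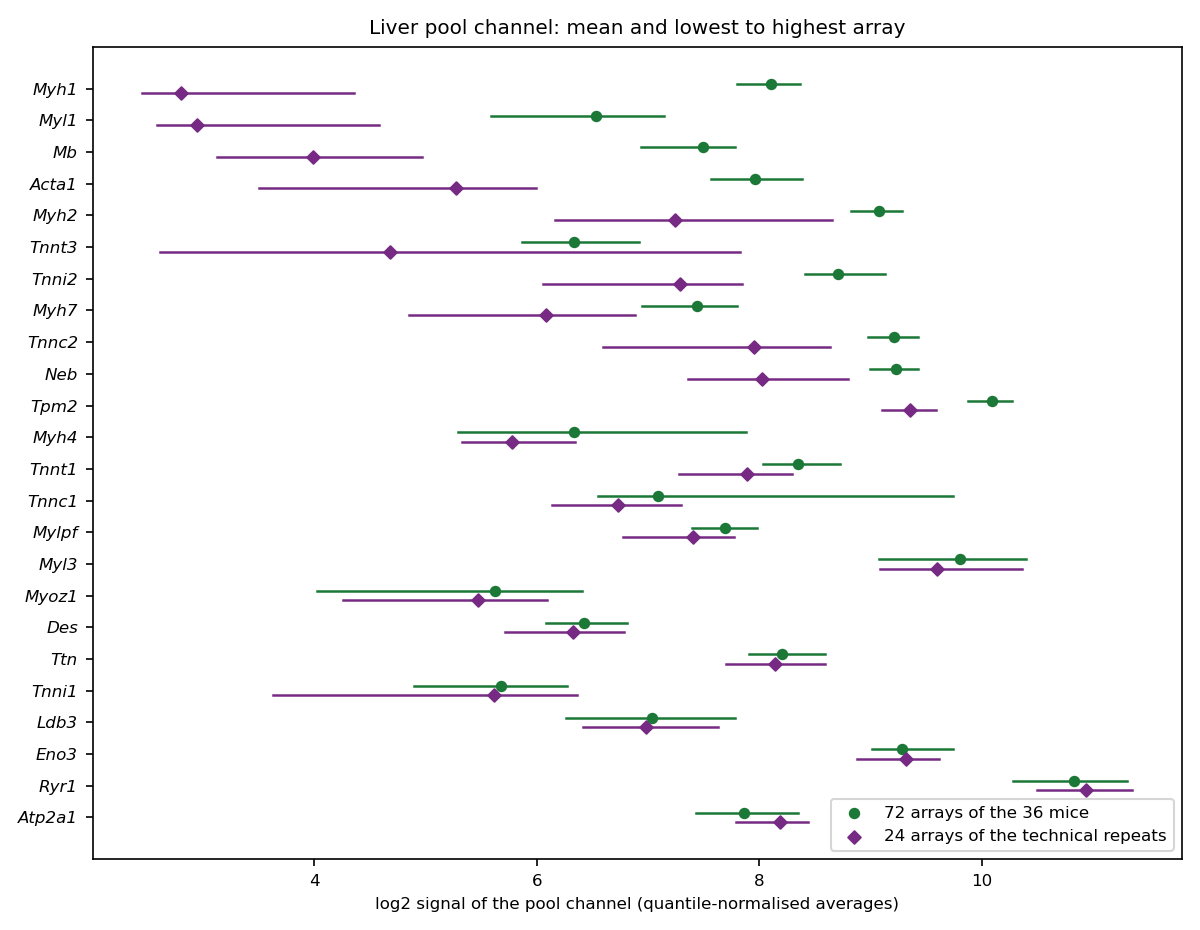
Log2 signal of the pool channel in liver for the 24 tested members (rows), as the mean (symbol) and the lowest to highest array (line), on the 72 arrays of treated mice (green circles) and on the 24 arrays of the technical repeats (purple diamonds). Myh1 stands at 8.10 and 2.80, and 10 of the 24 members have ranges that do not overlap.

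Set against that reference, the members went both ways or had no signal to compare. The median over 24 members was between 0.00 and 0.03 in the 6 repeats of RSG 28 and between 0.00 and 0.02 in those of S 28, values that do not describe the members singly. The middle ratio of Myh1, Mb and Myl1 was 0 in both sets, with both channels at background on all 24 arrays. Acta1 was above the reference, with a lowest, middle and highest log2 ratio of 0.71, 1.02 and 1.25 in RSG 28 and 0.06, 0.49 and 0.65 in S 28. For Acta1 the reference was well above background on 5 of 12 arrays in RSG 28 and 1 of 12 in S 28, and the liver channel on 8 and 3, so the size of its ratio is not read. Myh2 was also above the reference, which was well above background on 10 of 12 arrays in RSG 28, at 1.04, 1.10 and 1.42 in RSG 28. Tpm2 was above it with 0.94, 1.03 and 1.14, as it was above the pool in the mice, and Eno3 was below it with -0.71, -0.66 and -0.60. Myh2 was thus below the pool in the mice and above the reference in the repeats, while Tpm2 and Eno3 had the same sign in both. For Myh2 both channels differed between the arrays of the mice and those of the repeats. At RSG 28 the mean log2 signal of the liver channel was 6.51 and 8.51, and that of the reference 9.04 and 7.35. At S 28 the liver channel was at 7.69 and 8.24, and the reference at 9.14 and 7.13. The labels do not say which mouse was repeated, and why the references and the liver channels differ was not tested. The SD between repeats was 0.14 for the middle member, and since it was measured against the dimmer reference it is no measure of the error of the ratios in the mice.

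Probes of the same gene gave unequal ratios in liver. The second, dimmer probe of Myh1 was at -0.18 at RSG 280 and -0.26 at S 280 and was not called. For Myl3 the brighter probe was at 0.03 and the other at -0.97 at RSG 280, and at S 280 they were at 0.06 and -1.22. Since the tests above use the brightest probe, Myl3 was not called at 280 µmol/kg although its second probe was. For Tnni1 the probes were at 0.36 and 0.17 at S 280, and the second was not called. The brightest Ttn probe was at -0.14 at S 280 and its other tested probes at -0.58 and -1.55, all called lower. Ryr1 and Atp2a1 each had only 1 probe tested in liver. In IAT at S 280 that Ryr1 probe was at 0.02, while the other Ryr1 probes were at -2.66 and -2.78.

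RSG and S were compared directly at each dose, where the pool cancels out. At 28 µmol/kg 0 of 24 members were called in liver (limma, 9 at an unadjusted p under 0.05), where 0.469% of all probes were lower and 0.4% higher with RSG. At 84 µmol/kg 0 were called (0 unadjusted) beside 1.11% and 0.638%. At 280 µmol/kg 1 was lower and 1 higher with RSG, beside 13.8% and 13.8%. Myh2 was higher with RSG than with S (log2 difference 1.50, 95% interval 0.58 to 2.42, adjusted p = 0.0121), with mouse ranges that overlap and the S 280 mouse channel above background on 5 of 12 arrays. Tpm2 was lower with RSG (log2 difference -0.53, interval -0.84 to -0.22, adjusted p = 0.00819). In the 2 mice of each group scanned on a shared day these differences were 1.93 and -0.52. With scan day as a fixed block neither was called.

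Between 280 and 28 µmol/kg, RSG gave 0 called members in liver (limma, 3 at an unadjusted p under 0.05), with 0% of all probes lower and 0.0115% higher. With S, 5 members were lower and 2 higher at 280 than at 28 (all probes 15.9% and 12.6%). Myh2 fell by 1.71 on the log2 scale (interval -2.63 to -0.79, adjusted p = 0.00417), Mylpf, the fast regulatory light chain, by 0.57 (adjusted p = 0.000712), Neb by 0.70, Des by 0.31 and Eno3 by 0.26. The size for Myh2 rests on an S 280 mouse channel above background on 5 of 12 arrays. It also rests on an S 28 group that holds replicate 5, at 1.09. Myh4 and Tpm2 rose, by 0.49 and 0.47, Myh4 with its mouse channel above background on 3 of 12 arrays at either dose. Without S 28 replicate 5 and RSG 280 replicate 6, 4 members were called, 2 of them lower.

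In IAT, 27 to 29 of the 33 members had a group mean below the pool in 5 of the 6 groups, and all 33 did at S 280. At RSG 28, 13 of 33 members were lower (limma, all probes 19.3%) and 0 higher (27%), at RSG 84 21 and 0 (27.2% and 37.9%) and at RSG 280 19 and 0 (29.8% and 36.5%). With S, 14 were lower and 0 higher at 28 µmol/kg (19% and 27.9%), 9 and 0 at 84 (22.3% and 32.7%), and 29 and 0 at 280 (32.1% and 42%). The median log2 ratio over the members was -1.07, -1.33 and -1.23 with rising RSG dose and -1.16, -0.80 and -2.71 with rising S dose. By role, at S 280 8 of 9 thick filament, 6 of 9 thin filament and all 6 Z-disc genes were lower, as were all 4 calcium handling and all 4 energy genes and Trim63, a ubiquitin ligase of muscle.

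Pvalb, the calcium buffer of fast fibres, had log2 ratios of -5.54, -4.01 and -3.02 in the lowest, middle and highest mouse of S 280 (mean -4.20 ± 0.66 SE, 18.3-fold lower, adjusted p = 1.20e-06). At RSG 280 they were -4.48, -2.03 and 0.12 (4.82-fold lower, adjusted p = 0.00325). All S 280 mice lay below the pool and 1 RSG 280 mouse did not, and the ranges overlap. Myh4, the heavy chain of type IIb fibres, had -4.72, -3.96 and -3.08 at S 280 (adjusted p = 1.21e-06) and -4.22, -2.68 and 0.90 at RSG 280 (adjusted p = 0.000989). Its spot was saturated on 34 of the 72 IAT arrays, 5 of 12 at S 280 and 6 of 12 at RSG 280, so no fold is given, and leaving such spots out changed none of its calls. Its probe lies at chromosome 11, 67076527 to 67076586 (mm8).

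Eno3 was at -5.58, -3.89 and -2.00 in the lowest, middle and highest mouse at S 280 (mean -3.90, adjusted p = 5.82e-06), and the fast troponin T gene Tnnt3 at -4.82, -3.44 and -1.81 (10.6-fold lower, adjusted p = 1.12e-05). At RSG 280 they were 3.72-fold (adjusted p = 0.0147) and 3.36-fold (adjusted p = 0.0136) lower, and the highest mouse of each was above the pool. Actn3, the fast-fibre actinin, was 10.4-fold lower at S 280 (-4.59, -3.28 and -2.12, adjusted p = 5.49e-06). Trim63 was 7.95-fold lower at S 280 (adjusted p = 7.96e-05), and at RSG 280 its mean was -1.28 ± 0.62 (adjusted p = 0.0700, not called). Tpm2 and Atp2a1 had the narrower spreads: Tpm2 was at -2.92, -2.21 and -1.68 at S 280 (4.83-fold lower, adjusted p = 4.16e-07) and below the pool in all 36 IAT samples, as were 5.2% of all probes. Atp2a1 was 6.55-fold lower at S 280 (-3.24, -2.77 and -2.13, adjusted p = 4.88e-07).

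**Figure D4:**
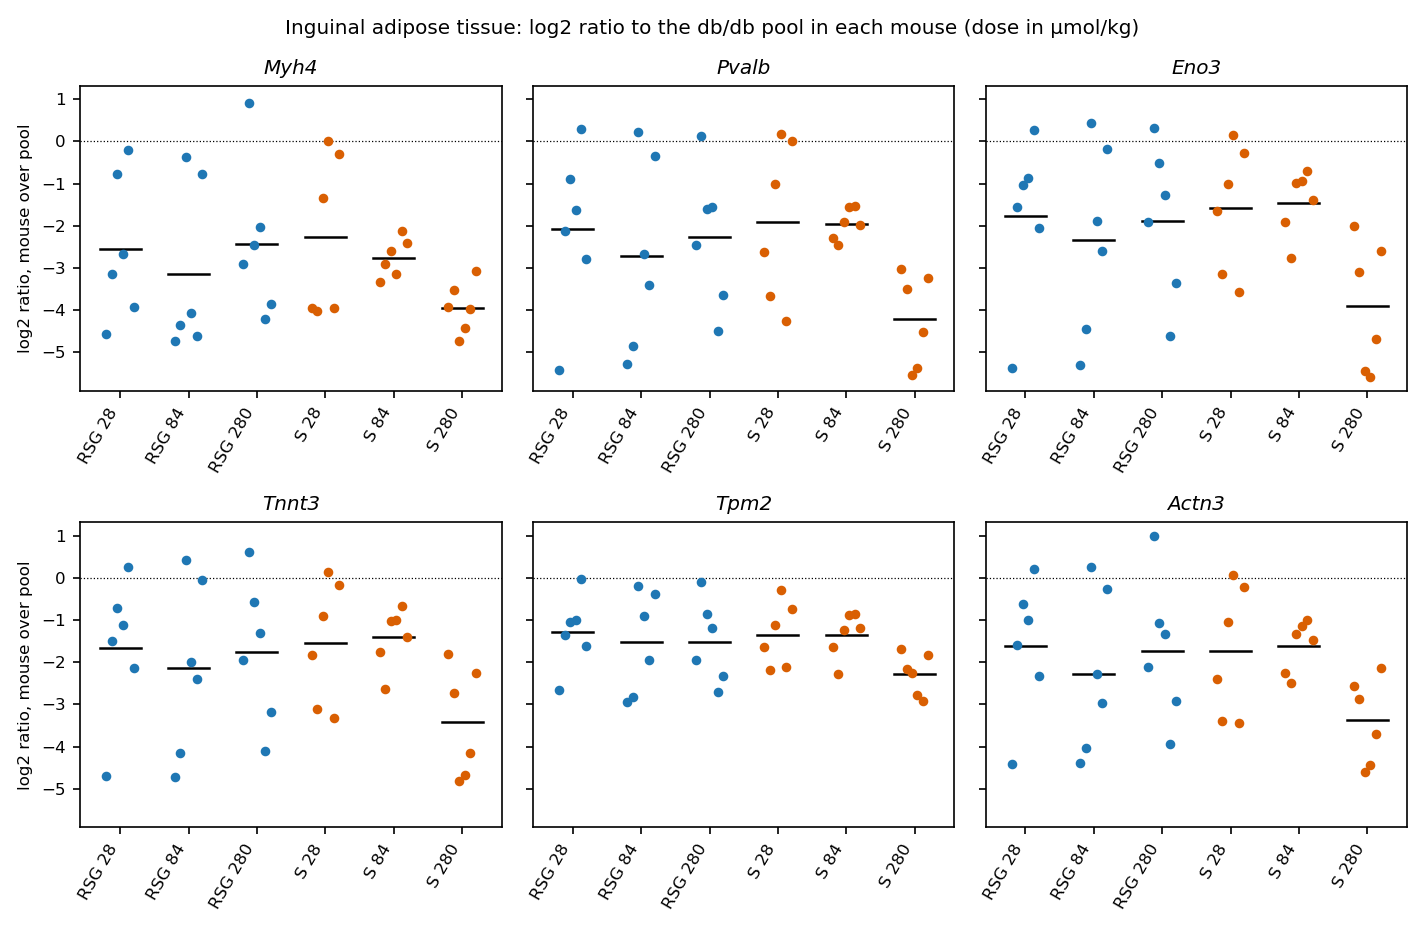
Log2 ratio of mouse over pool in IAT for 6 members (panels), 1 point per mouse, blue for RSG and orange for S, with the group mean as a bar. The 6 mice at S 280 lie below 0 for all 6 members, and at RSG 280 a mouse lies above 0 for each member but Tpm2.

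The single mice differed far more in IAT than in liver. The median over the 33 members ran from -3.68 (S 280 replicate 3) to 0.63 (RSG 84 replicate 3) over the 36 mice, and each of the 6 groups but S 84 and S 280 had a mouse above the pool. The SD between mice of a group was 1.47 log2 units for the middle member (0.85 for Tpm2 to 2.27 for Myh7), against 0.17 for the middle probe. All 33 members were above the 95th percentile of the probes and 16 above the 99th. Mice were extreme for many members at once. RSG 28 replicate 1 and RSG 280 replicate 5 were each the lowest of their group for all 33 members, where they were the lowest for 13.6% and 11.4% of all probes. S 28 replicate 4 was the highest for 33 (13.5% of all probes), RSG 28 replicate 5 for 30 (17.2%) and RSG 280 replicate 2 for 28 (26.2%). Leaving out single mice moved the counts: without RSG 28 replicate 1 the 13 members called fell to 3, and without RSG 280 replicate 5 the 19 called became 7. The 14 called at S 28 became 3 without replicate 2 or without replicate 5. At S 280 the count stayed between 28 and 32.

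Slow-fibre and fast-fibre genes lay at different levels against the IAT pool. At S 84 Myh7, the slow heavy chain, had log2 ratios of -2.67, 2.04 and 2.39 in the lowest, middle and highest mouse (mean 1.24 ± 0.90 SE, adjusted p = 0.246), and at S 280 -4.10, -2.00 and 1.83. It lay above the pool in 23 of 36 mice, as Tnnc1 did in 24, and neither was called in any group. The median over 6 slow-fibre members was above that over 14 fast-fibre members in 34 of 36 IAT mice, by 2.31 log2 units in the middle mouse (-1.54 to 3.49). In liver the slow median, over 5 tested members, was above the fast one, over 10, in 35 of 36 mice, by 0.88 (-0.60 to 1.38). The fast list there holds Myh1 and Myl1, whose mouse channel was at background in several groups. The slow list holds Myl3 by its brighter probe, at 0.06 at S 280, where its other probe was at -1.22. It also holds Tnni1, whose pool channel was well above background on 45 of 72 liver arrays. Over the IAT mice the fast median ranged from -3.87 to 0.59 and the slow median from -3.52 to 2.36. At S 280 all 14 fast-fibre members were lower and 2 of 6 slow ones, while at RSG 280 12 and 0 were. Whether the fibre types differ was not tested.

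**Figure D5:**
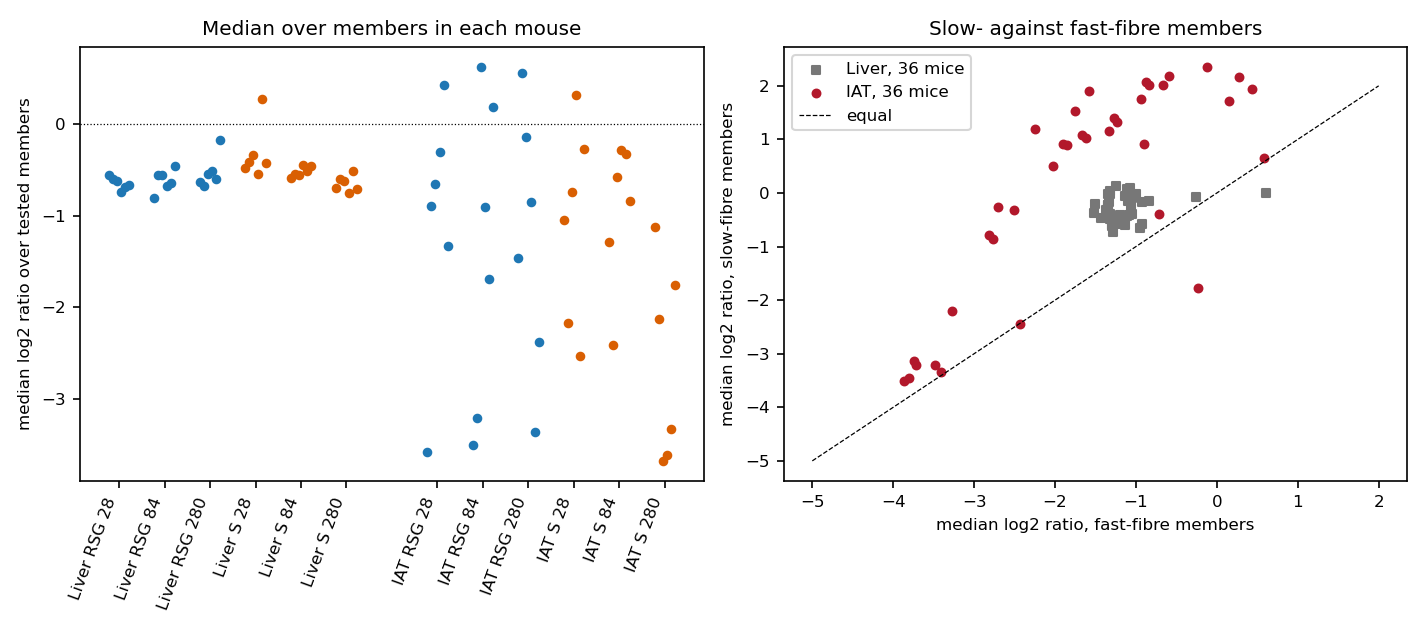
Left, median log2 ratio of mouse over pool over the tested members in each of 72 samples, by tissue, compound (blue RSG, orange S) and dose in µmol/kg. Right, median over slow-fibre members against that over fast-fibre members in the same samples, grey squares liver and red circles IAT, with equality dashed. Livers lie within -0.81 to 0.28 and IAT samples within -3.68 to 0.63, and 34 of 36 IAT points lie above the line.

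The IAT pool held strong signal for these genes and was steady between arrays. All 33 members were well above background on all 72 arrays in both channels. The SD of the pool channel over arrays was 0.27 log2 units for the middle member and 0.26 for all probes, while that of the mouse channel was 1.43 for the members and 0.37 for all probes. Compared between the tissues with 1 probe per gene, the IAT pool was above the liver pool for 32 of 33 members, the exception being Ryr1 (-0.69 log2 units). That exception rests on 1 of the 3 Ryr1 probes. The mean log2 signal over both channels of the other Ryr1 probes was 12.7 and 12.5 in IAT and 3.78 and 3.36 in liver. The liver pool was well above background on none of its arrays for Casq1, Pvalb, Pygm and Trim63 and on some for others, and Myh4 was saturated in IAT, so the size of the gap is given only for genes detected on all arrays of both tissues. For Acta1 the log2 pool signal was 16.8 in IAT and 7.96 in liver, and for Mb 15.5 and 7.49. Whether muscle tissue in the pool or in single samples had a part in these ratios was not tested, and no second IAT reference was measured.

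No member was called between RSG and S in IAT. At 28, 84 and 280 µmol/kg 0 of 33 members were called (limma), with 0, 0 and 2 at an unadjusted p under 0.05. RSG was lower for 0.00636%, 0.76% and 1.09% of all probes and higher for 0%, 1.35% and 0.391% at those doses. At 280 µmol/kg the median difference over the members was 1.48 log2 units, RSG above S, and the intervals were wide: 1.93 (95% interval 0.03 to 3.83, adjusted p = 0.239) for Pvalb, 2.01 (0.06 to 3.96, adjusted p = 0.233) for Eno3, 1.51 (-0.27 to 3.30) for Myh4 and 0.75 (-0.21 to 1.72) for Tpm2. The last intervals hold both 0 and differences of several fold.

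From 28 to 280 µmol/kg RSG gave 0 called members in IAT (limma, 0 unadjusted), with 11.5% of all probes lower and 13.4% higher. With S, 2 members were lower and 0 higher (all probes 16.8% and 25.9%): Eno3 fell by 2.32 on the log2 scale (interval -4.27 to -0.37, adjusted p = 0.0497) and Pvalb by 2.30 (-4.20 to -0.40, adjusted p = 0.0460). Another 12 members had an unadjusted p under 0.05. Both calls sit at the threshold and the count ran from 0 to 9 when single mice were left out, with 9 without S 28 replicate 5, 8 without S 280 replicate 1, 6 without S 28 replicate 2 and 0 without S 28 replicate 3, 4 or 6 or S 280 replicate 3, 4 or 5. It was 1 without S 28 replicate 1 or S 280 replicate 2.

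The ratio to the tissue's own pool was compared between IAT and liver at 280 µmol/kg over 24 members. With RSG, 3 were lower in IAT and 2 higher (all probes 21.9% and 38.6%), and with S 14 were lower and 1 higher (25.8% and 47.1%). Tpm2 differed most in sign: it was 2.19 log2 units lower in IAT with RSG (adjusted p = 3.19e-07) and 3.48 with S (adjusted p = 2.95e-13), being above the pool in liver and below it in IAT. The members called higher in IAT were Myh1 and Mb with RSG and Myh1 with S. At RSG 280 their liver mouse channel was well above background on 2 of 12 arrays each, and for Myh1 at S 280 on 0 of 12, so the liver ratio there is a bound and neither the size nor the call of these differences can be relied on. With S the members called lower included Eno3 (-3.16), whose liver mouse channel was above background on all 12 arrays. The pools are different RNA, so these contrasts compare 2 ratios and not 2 levels. Liver and IAT samples entered them as independent, and any pairing of the tissues within a mouse was not modelled.

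Other lists of genes were measured beside the members. Of 38 further skeletal muscle genes on the array 38 were tested in IAT and 24 in liver. At S 280 35 were lower and 0 higher in IAT (median -2.29), among them Cacng1, a calcium channel subunit (-2.40), and Cmya5 (-3.24). In liver 12 were lower and 4 higher (median -0.29): Myom3, a protein of the M-band, was at -2.36 and Lmod3, which helps build thin filaments, at -0.79, while Myom1 was at 1.21. The median of this list over single IAT mice ran from -3.44 to 0.72. In the reference of the liver repeats 3 of the 24 were lower by more than 1 log2 unit than in the pool of the mice.

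Smooth muscle genes lay below the IAT pool as a median in all 36 mice (-1.63 to -0.45). At S 280, where 32.1% of all probes were lower and 42% higher in IAT and 37.9% and 27.9% in liver, 9 of 9 smooth muscle genes were lower in IAT, and in liver 4 of 9 were lower and 2 higher (median -0.06). Of 11 cardiac genes 8 were lower and 1 higher in IAT, and of 9 in liver 2 and 1. Of 8 genes of myogenic regulators and the neuromuscular junction 5 were lower and 1 higher in IAT, and of 5 in liver 3 and 0. The medians of the epithelial genes in single IAT mice ran from -4.19 to 2.84, a wider range than that of the members (-3.68 to 0.63). At S 280, 8 of 12 epithelial genes were lower and 0 higher in IAT, and 2 of 10 lower and 4 higher in liver. Of 12 brown adipocyte genes 0 were lower and 11 higher in IAT, and of 10 in liver 2 and 7. Of 12 adipocyte genes 3 were lower and 7 higher in IAT, and of 10 in liver 2 and 6. Hepatocyte genes were lower for 4 and higher for 2 of 12 in IAT, and for 11 and 1 of 13 in liver. Lymphocyte genes were lower for 5 and higher for 3 of 9 in IAT, and for 2 and 3 of 8 in liver. Schwann cell genes were lower for 5 and higher for 1 of 6 in IAT, and for 2 and 1 of 6 in liver. The part of these cell types in the muscle ratios was not tested.

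Mybpc1, the slow myosin-binding protein C and the remaining member, is carried in the files under the name 8030451F13Rik and was read through its RefSeq accession. In IAT its log2 ratio was -3.15, -2.25 and -0.77 in the lowest, middle and highest mouse at S 280 (mean -2.10, limma adjusted p = 0.000199), all below the pool. At RSG 280 it was -2.82, -0.82 and 0.61 (adjusted p = 0.0729). It was not tested in liver.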

How the data were processed

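RNA of 72 samples of treated mice (36 livers and 36 IAT) and 12 technical repeats was measured on 168 Agilent 2-colour arrays. The labels do not say which liver and which IAT sample came from 1 mouse. The mice were treated for 18 days and the control RNA was pooled from 6 db/db mice given 1% HEC. The authors scanned the arrays and deposited the output of Agilent Feature Extraction 9.5: log10 ratios of red over green, intensity values of both channels, and flags. The software had corrected the background and the dyes. A series-wide table of log10 ratios, also deposited, served as an alternative without 4 samples: its IAT S 280 columns 4, 5 and 6 match the arrays of replicates 6, 4 and 5, and its IAT S 84 column 6 matches no array. The other 80 columns run as mouse over pool on the log10 scale (slope on the array ratios 0.987 to 0.996, column medians 0 to 0.0159), and whether they were centred stays unknown. The unit in the text is log2 of mouse over pool, computed from the deposited log10 ratios.

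Log ratios were turned to mouse over pool by the dye labels, which were the same in labels and files for all arrays. Spots of 1 probe were averaged, then the 2 arrays of a pair. Outlier spots and controls were left out. A probe entered the tests of a tissue when 50% or more of the arrays in some group had it well above background in either channel. A single limma model per tissue (version 3.58.1, R 4.3.3, lmFit and eBayes) held all 36 mice by group, adjustment (Benjamini-Hochberg) ran over the probes tested, and calls were made at adjusted p under 0.05. Folds below background are bounds from channel signals after loess and Aquantile normalisation. The number of arrays limits the precision. The labels name separate mice as replicates of a group. The code was tested on simulated data, and plots were made in Python 3.11.15 (matplotlib 3.10.9).

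The values of every mouse are given for the 4 members furthest from the pool at 280 µmol/kg in each tissue and for the member of each role with the smallest p. Acta1 and Myh7, and the members named for contrasts, probes or the reference channel, were chosen after their values were seen. The members, the lists and this rule were chosen with earlier results of these data known. Alternatives were normexp with an offset of 50 and loess, centring of each sample, the deposited table, no filter, a stricter filter, saturated spots left out, slide, scan day or replicate number as a block, the mean of all probes of a gene, the thresholds of the study's methods (p under 0.001 and a fold of at least 1.3), and each mouse left out. Leaving out S 28 replicate 5 and RSG 280 replicate 6 of liver was added after seeing the data. The Rosetta error model of the methods was not used here, and the genome build of the probe positions is mm8 per the file headers. Promoters are from RefSeq, build GRCm38.p6.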

Additional observations from a re-analysis of the deposited data

Results flagged for a closer look

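In groups of 6, a mouse that stood apart was sought by Dixon's gap test at the 95% level. The sets were those of the members furthest from the pool or with the smallest p of their role, and of the median of the members. A mouse was flagged in 10 of these 108 sets, or 9.26%. All 10 were in liver. Over every member tested, the test flagged 18 sets in liver and 15 in IAT, so mice stood apart in both tissues. For 1 set chance gives about 1 in 20. The sets are not independent, since they share mice and the median is taken over the members, so the 2 shares cannot be compared. Liver S 28 replicate 5 was the highest of its group with log2 ratios to the pool of 1.08 for Mb, 0.91 for Myh1 and 1.04 for Myl1, and a median over the members of 0.28. Liver RSG 280 replicate 6 was the highest with -0.33 for Mb, -0.31 for Myh1 and -0.50 for Myl1, and a median of -0.17. For Eno3, liver RSG 280 replicate 2 was the highest at 0.16 and liver RSG 84 replicate 1 the lowest at -0.72.

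The ratio to the tissue's own pool differed between IAT and liver (limma, IAT minus liver). With RSG 280 the log2 difference was -1.48 for Atp2a1, 1.36 for Mb, 2.43 for Myh1, -1.70 for Myh4 and -2.19 for Tpm2. With S 280 it was -2.52 for Atp2a1, -1.91 for Des, -3.16 for Eno3, 1.65 for Myh1, -2.99 for Myh4, -1.66 for Tnnt3 and -3.48 for Tpm2. In liver the mouse channel of Mb and Myh1 was well above background on 2 of 12 arrays each at RSG 280, and at S 280 that of Myh1 was on 0 of 12, of Myh4 on 3 and of Tnnt3 on 5. The sizes and calls of these differences for Mb and Myh1 therefore cannot be relied on, and those for Myh4 and Tnnt3 at S 280 rest on liver signals mostly near background.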

How the results depend on the processing

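Of 287 counts recomputed under another setting, 258 stayed within 1.5 times the reported count and 29 did not. Of 1008 mean log2 ratios of named members against the pool recomputed under those settings, 0 changed sign. These members were named for large ratios or small p in the same data, so a kept sign was likely beforehand and says little about the other members. At the methods' thresholds the members called against the pool in IAT became 3 at RSG 28, 9 at RSG 84, 4 at RSG 280, 3 at S 28 and 3 at S 84. At those thresholds the counts were also 0 for IAT S 280 minus 28, 1 for IAT minus liver with RSG, 0 for liver RSG minus S at 280 and 2 for liver S 280 minus 28. The 2 members called in IAT between S 280 and 28 became 0 with normexp and loess, the deposited table, no filter or slide as a random block, 1 with the mean of all probes and 15 with scan day as a random block. The count at IAT S 28 was 9 with the slide block and that at IAT S 84 was 17 with the random scan day block. The 5 of IAT minus liver with RSG became 9 with normexp and loess or with no filter, and 3 with the mean of all probes. The 2 of liver RSG minus S at 280 became 1 with the mean of all probes and 0 with scan day as a fixed block. The 7 of liver S 280 minus 28 became 4 with centring, the slide block, the mean of all probes or without S 28 replicate 5 and RSG 280 replicate 6, and 3 with no filter or the fixed scan day block. Without that pair, which was picked for its high values in these members, 11 in place of 1 were below the pool in every liver. The causes were not tested.

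With 1 mouse left out at a time, the members called against the pool in IAT ran from 3 to 20 at RSG 28 (5 without replicate 6), 12 to 23 at RSG 84 (13 without replicate 2), 7 to 23 at RSG 280 (8 without replicate 6), 3 to 19 at S 28 (7 without replicate 1), 5 to 9 at S 84 (5 without replicate 1 or 2) and 28 to 32 at S 280. In liver each count against the pool stayed within 1.5 times its value. The counts ran from 0 to 9 for IAT S 280 minus 28, 4 to 11 for IAT minus liver with RSG (11 without IAT RSG 280 replicate 2), 1 to 4 for liver RSG minus S at 280 and 3 to 7 for liver S 280 minus 28. With the replicate number as a block, 19 members were called at IAT RSG 280 and 20 at liver RSG 28, and no count moved by over 1.5 times. Mice with the same number correlated at a median of 0.09 in liver and 0.13 in IAT, with 44 and 47 of 90 pairs over 0.1. Mice with other numbers correlated at a median of -0.03 in either tissue. These correlations, taken within a tissue, do not settle whether the numbers pair the mice. The scan day could not be fitted as a fixed block for IAT S 280. The median over all probes of IAT minus liver with S 280 was 0.16 and became 0.04 with normexp and loess.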
